A study of Mus musculus with 6 samples.

Results

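Chemokine ligand and chemokine receptor genes were followed in 6 RNA libraries of LSK cells from mouse bone marrow. The members were the protein-coding genes whose symbol is Ccl, Cxcl, Ccr, Cxcr or Ackr followed by a number, with Xcl1, Xcr1, Cx3cl1 and Cx3cr1, apart from genes not reported here. They numbered 58 of the 54532 genes in the files, 37 of them ligands and 21 receptors. LSK cells are lineage-negative, Sca-1-positive and c-Kit-positive, a gate that enriches for blood stem cells and early progenitors. All 6 libraries were labelled Phf6fl-R274X/Y: Phf6, on the X chromosome, carried a floxed allele that is meant to switch to the premature stop R274X under Cre, and the Y marks males. In 3 libraries there was no Cre (floxed libraries, the controls), and in 3 the allele was combined with Vav1-Cre, whose promoter drives Cre in blood cells (Vav1-Cre libraries). No control carried Vav1-Cre without the floxed allele, so the effects of Cre and of the mutation cannot be told apart. The labels gave no age, and nothing in them says that each library is from its own mouse, so every p-value here rests on a spread among libraries that may be technical.

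Chemokines are small secreted proteins that guide cells along a gradient, and they are grouped as CC, CXC, C and CX3C by the spacing of their first cysteines. Their receptors are G protein-coupled receptors that signal mainly through Gi proteins, while the atypical receptors of the Ackr group bind chemokines without this signalling and act as scavengers. In bone marrow, Cxcl12 from stromal cells holds blood stem and progenitor cells in place through Cxcr4, and Cxcr2 and Ccr2 direct the exit of neutrophils and monocytes. Several CC ligands, Ccl3, Ccl4, Ccl6 and Ccl9 among them, are made by myeloid cells and their progenitors.

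Library totals ran from 15406314 to 18106065 counts. Phf6 itself measured 31.77, 29.59 and 33.53 CPM (counts scaled to the size of each library) in the floxed and 8.47, 10.25 and 8.30 CPM in the Vav1-Cre libraries (log2 fold change -1.81, SE 0.123, edgeR adjusted p = 6.67e-06). The Vav1-Cre libraries held more immunoglobulin RNA, 4.45% to 7.95% of counts against 0.29% to 1.18%. Every list of markers of mature cells, which the gate should remove, had counts in every library, as the plot of marker lists shows, and some lists share genes. Each sum below covers all genes of a list that were found in the files, while calls are given for the tested genes only. For 10 B cell markers the summed level was 747 to 1438 CPM in the Vav1-Cre libraries against 179 to 405 CPM in the floxed libraries. Of the 9 tested, 7 were called higher and 0 lower. For 8 plasma cell markers the sums were 2061 to 4676 against 308 to 882 CPM, with 5 higher and none lower. For 12 macrophage and monocyte markers they were 1187 to 2507 against 274.4 to 555 CPM, with 6 higher and none lower. In the list for T and NK cells 10 of 12 genes were higher and Nkg7 was lower, and the sums overlapped (145 to 194 against 181 to 198 CPM). The median log2 fold change of that list was 1.13. Dendritic cell markers rose in 5 and fell in 2 of 10, with sums of 713 to 742 against 665 to 706 CPM. Ccr7 and Xcr1 are members that also belong to this last list. Neutrophil markers overlapped (13415 to 35307 against 16946 to 29203 CPM, 1 of 10 lower). Mast cell, basophil and eosinophil markers summed to 262 to 319 against 159 to 258 CPM, with 1 of 9 lower, and erythroid markers to 1678 to 2834 against 754 to 1097 CPM, with 2 of 7 higher. Megakaryocyte and platelet markers (106 to 145 against 162 to 217 CPM, 2 of 6 lower) and endothelial and stromal markers (104 to 114 against 140 to 152 CPM, 1 higher and 2 lower of 8, Cxcl12 being a member) were lower in sum. The genes of the gate were detected throughout, and of 8 of them Ly6a (Sca-1) rose and 7, Kit among them, fell. Only Gp1bb of all these markers had no count in any library, and Mcpt4, Gp6, Lepr and Nes had none in at least 1 library. What part such cells have in the results below was not tested, and in bulk RNA fewer cells of a type and less RNA per cell cannot be told apart.

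**Figure D1:**
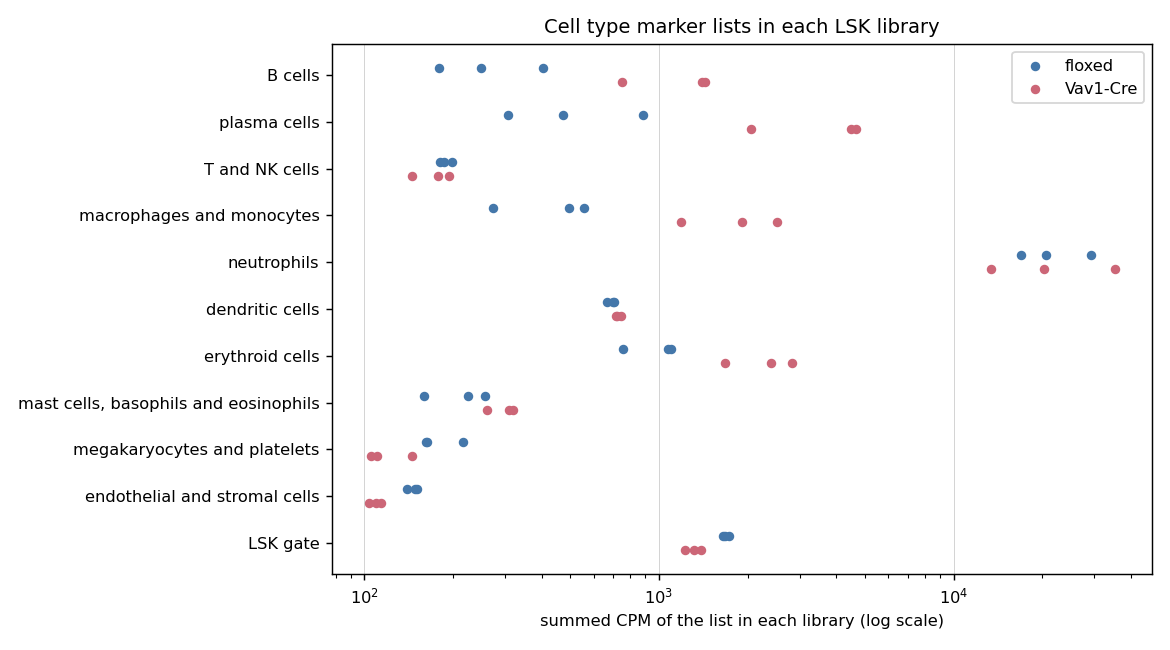
Summed level of each marker list (horizontal axis, CPM, log scale) in the 3 floxed and 3 Vav1-Cre libraries, where each point is a library. B cell, plasma cell, macrophage and monocyte, and erythroid lists lie higher in all Vav1-Cre libraries, the neutrophil list overlaps, and the gate list lies lower (1222 to 1384 against 1650 to 1727 CPM).

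Of the 58 members, 28 had enough counts to be tested, 16 ligands and 12 receptors. Another 11 members, all ligands, had 0 counts in all libraries, which allows up to 0.195 CPM in the shallowest library (3 counts of the total, counting error only). These were Ccl1, Ccl11, Ccl19, Ccl20, Ccl21a, Ccl21b, Ccl26, Cxcl5, Cxcl13, Cxcl15 and Cxcl17, among them the lymph node ligands of Ccr7 (Ccl19 and the Ccl21 copies) and the B cell follicle chemokine Cxcl13. The remaining 19, 10 ligands and 9 receptors, had a few counts and stayed under the count filter. They include all 4 atypical receptors (Ackr1 to Ackr4), whose counts did not exceed 11 in any library.

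Per gene length, the ligands were dominated by a pair of genes and the receptors by Cxcr4. In the authors' FPKM values (fragments scaled to gene length and library size), Ccl3 and Ccl4 together made up 85.4%, 84.4% and 86.5% of the ligand total in the floxed libraries and 78.2%, 78.0% and 77.8% in the Vav1-Cre libraries. Ccl3 stood at 404 ± 74.4 FPKM and Ccl4 at 292 ± 32.2 FPKM in the floxed libraries (SD, n = 3 each). Next in level over all 6 libraries came Ccl6, Ccl9, Cxcl2, Ccl5 and Xcl1. Cxcr4 made up 64.4% to 74.5% of the receptor total, at 63.6 ± 6.73 FPKM in the floxed and 93.4 ± 7.40 FPKM in the Vav1-Cre libraries (SD, n = 3 each). Cxcr2 (8.67 ± 2.79 FPKM in the floxed libraries) and Ccr1 (6.12 ± 2.70 FPKM) followed, and these neighbours in the order did not differ beyond their spread. Cxcl12, the ligand of Cxcr4, was the lowest of the tested ligands, at 0.143 ± 0.0988 and 0.0862 ± 0.0649 FPKM (SD, n = 3 each).

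**Figure D2:**
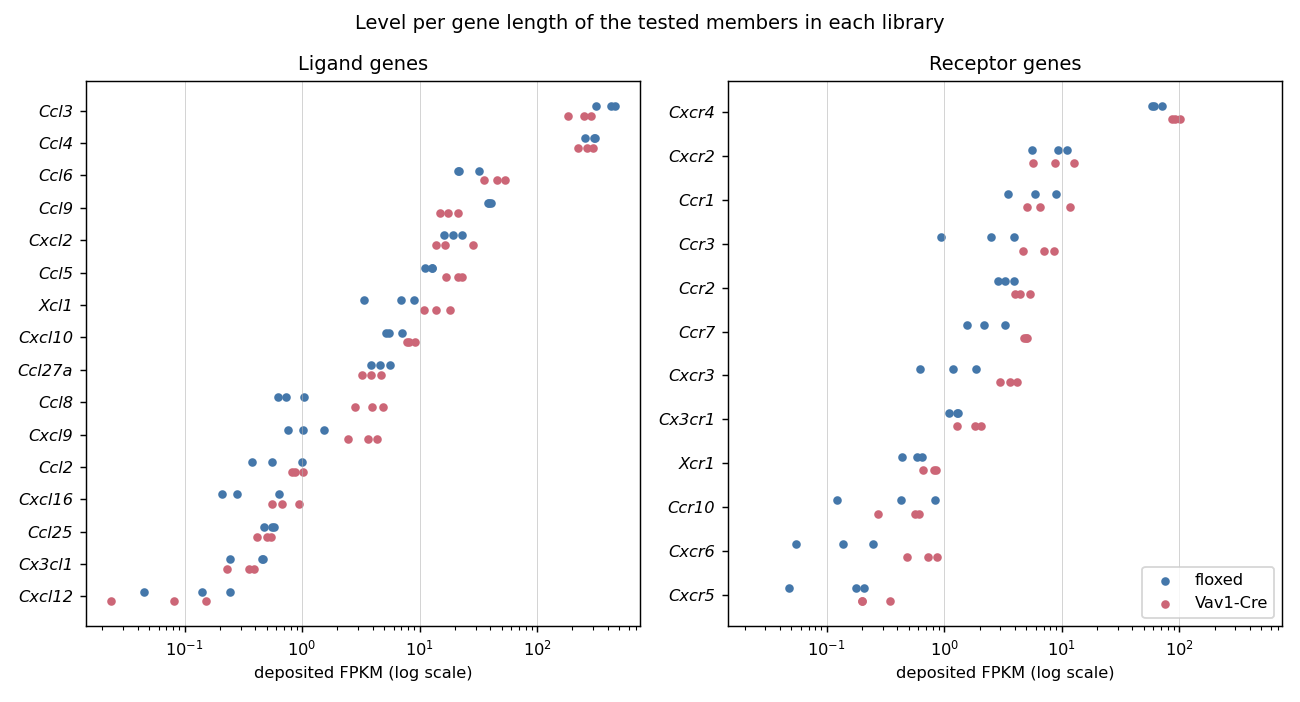
Deposited FPKM (horizontal axis, log scale) of the 16 tested ligand and 12 tested receptor genes, ordered by their mean over all libraries, where each point is a library. Ccl3 and Ccl4 stand far above the other ligands and Cxcr4 above the other receptors in both groups.

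The comparison between genotypes asked which chemokine genes differ where Phf6 carries the mutation. The classes are given side by side, and the difference between them was not tested. Of the 12 tested receptors, 5 were higher in the Vav1-Cre libraries and none lower, and all 12 had a log2 fold change above 0 (11 with an offset for gene length, 10 or 11 with a library left out), with a median log2 fold change of 0.51. Of the 16 tested ligands, 5 were higher and 1 lower, 9 log2 fold changes were above and 7 below 0, and the median was 0.25. With limma on log2 of FPKM plus 0.1 the order of the medians turned, with 0.51 for ligands and 0.44 for receptors that passed its filter. Over all 14608 tested genes 10.1% were called higher and 7.89% lower, 17.9% in either direction, with a median log2 fold change of -0.02. Upper-quartile scaling gave 1215 genes higher and 1430 lower over all genes in place of 1469 and 1152. Under that scaling 4 receptors were called higher and none lower, against 4 ligands higher and 1 lower, and all 12 receptors kept a positive sign. The ranges of the groups did not overlap for 7 receptors, all higher, and for 8 ligands, 6 higher and 2 lower, where 18.9% of all tested genes were apart as higher and 18.3% as lower. Leaving out floxed 1, floxed 3 or Vav1-Cre 1 left 3, 3 and 1 of the receptors called, and over all genes 1462, 1242, 1218 and 1340 were called without floxed 1, floxed 2, Vav1-Cre 1 and Vav1-Cre 2 and 3295 without Vav1-Cre 3, against 2621.

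**Figure D3:**
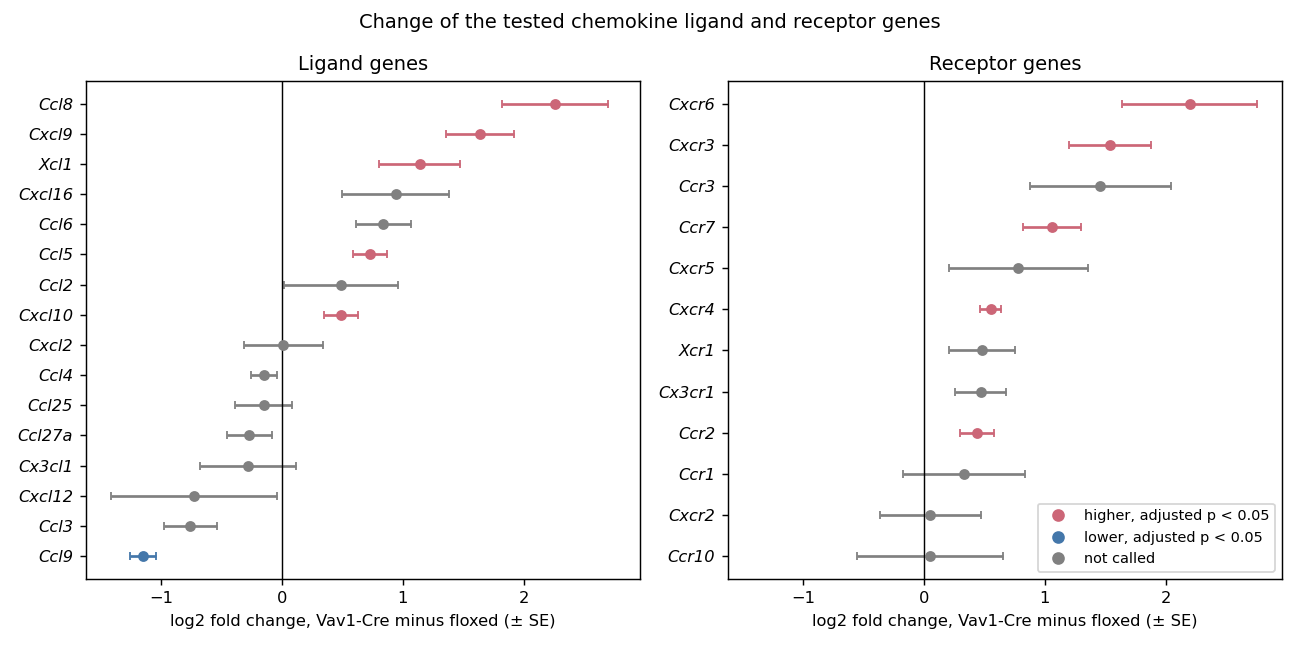
Log2 fold change of Vav1-Cre minus floxed libraries (horizontal axis, edgeR, ± SE, n = 3 each) for the tested ligands and receptors. The 5 called receptors lie between 0.44 (Ccr2) and 2.20 (Cxcr6), while the ligands run from -1.15 (Ccl9) to 2.26 (Ccl8).

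Ccl9 was the only member called lower. This CC chemokine binds Ccr1 in the mouse and is made by myeloid cells. It measured 124.9, 117.1 and 119.4 CPM in the floxed libraries and 53.3, 45.4 and 64.6 CPM in the Vav1-Cre libraries. Every Vav1-Cre library lay far below every floxed library. The fall was 2.21-fold (log2 fold change -1.15, SE 0.111, edgeR adjusted p = 0.000166), and it was called whichever library was left out (adjusted p from 8.38e-07 to 0.00509).

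Ccl3 and Ccl4, the macrophage inflammatory proteins, of which Ccl3 binds Ccr1, did not pass. Ccl3, which has also been described as a restraint on stem cell proliferation, measured 332, 249 and 355 CPM in the floxed and 192, 139.9 and 219 CPM in the Vav1-Cre libraries. The groups did not overlap, but the libraries of each group were spread widely. On the log2 scale the difference was -0.76 (SE 0.220, edgeR adjusted p = 0.0774). DESeq2 gave an adjusted p of 0.0134, limma-voom 0.0227 and edgeR without the robust option 0.0237, so the call depended on the test. Ccl4 measured 204, 171 and 208 CPM in the floxed and 178, 149 and 197 CPM in the Vav1-Cre libraries, ranges that overlap (log2 fold change -0.15, SE 0.110, adjusted p = 0.370). The ratio of Ccl3 to Ccl4 in FPKM was 1.40, 1.26 and 1.47 in the floxed libraries and 0.932, 0.811 and 0.960 in the Vav1-Cre libraries, so the pair did not keep 1 proportion.

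Ccl6, a close relative of Ccl9 and likewise a Ccr1 ligand of the mouse, had the opposite sign. Its values were 57.4, 39.6 and 38.0 CPM in the floxed and 82.5, 63.8 and 95.1 CPM in the Vav1-Cre libraries. The groups did not overlap, with floxed 1 close to Vav1-Cre 2. On the log2 scale the difference was 0.84 (SE 0.228, edgeR adjusted p = 0.0651), and it passed with DESeq2 (adjusted p = 7.42e-06), limma-voom (0.0183), no count filter (0.00792) and the robust option off (0.0195), and without floxed 1 (0.0106) or Vav1-Cre 2 (0.0388). The ratio of Ccl9 to Ccl6 counts was 2.18, 2.96 and 3.15 in the floxed libraries and 0.646, 0.712 and 0.679 in the Vav1-Cre libraries. Within every floxed library Ccl9 had more counts than Ccl6, and within every Vav1-Cre library fewer.

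Both genes lie in the CC cluster of chromosome 11 on the minus strand, with 9245 bases between them (Ccl9 from 83572919 to 83578636, Ccl6 from 83587882 to 83593087, GRCm38). Their promoters, 250 bases before to 50 after the start, are shown because the neighbours had opposite signs. They come from RefSeq on GRCm38.p6, with capitals where a script found a TATA box (TATAAA) or the kappaB consensus, the motif of NF-kB factors, on either strand. The stretches are chr11:83578587-83578886 (minus strand) for Ccl9 and chr11:83593038-83593337 (minus strand) for Ccl6.
Ccl9: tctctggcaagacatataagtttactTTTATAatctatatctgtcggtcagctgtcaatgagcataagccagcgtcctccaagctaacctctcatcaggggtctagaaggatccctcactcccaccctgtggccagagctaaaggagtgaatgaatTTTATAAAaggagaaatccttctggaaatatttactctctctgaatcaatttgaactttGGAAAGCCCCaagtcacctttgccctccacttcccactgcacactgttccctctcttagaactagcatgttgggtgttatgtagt
Ccl6: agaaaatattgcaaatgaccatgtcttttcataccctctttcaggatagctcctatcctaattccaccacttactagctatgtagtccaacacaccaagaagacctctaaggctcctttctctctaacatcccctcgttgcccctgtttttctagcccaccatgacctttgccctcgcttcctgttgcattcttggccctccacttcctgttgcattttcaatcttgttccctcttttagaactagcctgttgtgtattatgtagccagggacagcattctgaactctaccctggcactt
The best local alignment of the 2 promoters spanned 67 aligned bases that reach across the start of each, of which 59 (88.1%) were identical. The same alignment of Ccl9 with the nearby Ccl3 promoter spanned 11 bases. The Ccl9 promoter held TATA letters 94 and 92 bases before the start, on opposite strands and overlapping, a further match 224 bases before it, and a kappaB match 35 bases before it. None of the 5 motifs searched was found in the Ccl6 window.

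The interferon-inducible ligands of Cxcr3 rose together with their receptor. Cxcl9 measured 3.12, 2.31 and 4.63 CPM in the floxed and 13.1, 10.9 and 7.36 CPM in the Vav1-Cre libraries. All Vav1-Cre libraries were above all floxed libraries, a 3.11-fold rise (log2 fold change 1.64, SE 0.283, edgeR adjusted p = 0.00338). Cxcl10 measured 11.8, 12.5 and 15.9 CPM against 20.6, 17.8 and 18.3 CPM, again without overlap but with a smaller difference (1.41-fold, log2 fold change 0.49, SE 0.139, adjusted p = 0.0281). Its call was lost without floxed 1 (adjusted p = 0.124), floxed 2 (0.119), Vav1-Cre 1 (0.122) or Vav1-Cre 2 (0.0609), and in the 3 FPKM fits (0.0571, 0.0563 and 0.103). Cxcr3, a receptor of activated T cells, NK cells and plasmacytoid dendritic cells, measured 3.28, 2.09 and 1.08 CPM against 7.24, 5.22 and 6.29 CPM. The groups were apart and the rise was 2.90-fold (log2 fold change 1.54, SE 0.338, adjusted p = 0.0102), which did not pass without floxed 2 (0.0632) or Vav1-Cre 1 (0.0544). The genes lie on chromosome 5 (Cxcl9 from 92321347 to 92328079, Cxcl10 from 92346638 to 92348889) and on the X chromosome (Cxcr3 from 101731535 to 101734269). Exons of Cxcl10 overlap those of Art3 on the opposite strand, which held 46 counts over all libraries against 1613 of Cxcl10.

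Of the T and NK cell markers 10 of 12 were called higher and Nkg7 lower. Their median log2 fold change was 1.13, and the summed level overlapped. Of the macrophage and monocyte markers 6 of 12 were higher and the sums were apart. Their part in these 3 genes was not tested.

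The promoters of Cxcl9 (chr5:92328030-92328329, minus strand) and Cxcl10 (chr5:92348840-92349139, minus strand) are shown because these neighbouring members both rose. Capitals mark a TATA box, the kappaB consensus or the interferon-stimulated response element (ISRE, GAAA followed by NN and GAAA).
Cxcl9: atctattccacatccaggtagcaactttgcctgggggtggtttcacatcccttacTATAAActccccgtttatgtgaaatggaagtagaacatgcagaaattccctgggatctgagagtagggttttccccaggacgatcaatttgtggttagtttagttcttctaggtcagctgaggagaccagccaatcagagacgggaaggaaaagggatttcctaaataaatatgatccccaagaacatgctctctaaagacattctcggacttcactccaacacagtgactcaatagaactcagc
Cxcl10: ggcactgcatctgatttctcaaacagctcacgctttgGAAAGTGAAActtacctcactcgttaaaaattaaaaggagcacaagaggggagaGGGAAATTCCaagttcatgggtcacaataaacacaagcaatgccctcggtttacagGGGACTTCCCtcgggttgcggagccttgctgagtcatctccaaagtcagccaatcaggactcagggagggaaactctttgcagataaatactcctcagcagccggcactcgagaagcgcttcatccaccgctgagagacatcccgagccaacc
In the Cxcl10 window the ISRE match began 213 bases and the kappaB matches 159 and 103 bases before the start, with a GATA match 22 bases before it, while the Cxcl9 window held only a TATA match 195 bases before it. Among the 52 promoters of the 45 members that matched the RefSeq table, 19.2% held the kappaB consensus, 5.77% the ISRE, 28.8% the TATA box, 7.69% the GAS element of STAT factors (TTCNNNGAA) and 21.2% the GATA motif AGATAA. Over all 32851 promoters of the same length the shares were 4.51%, 3.44%, 13.6%, 8.30% and 11.2%. A match describes letters in a window and is not a bound site.

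Among the other CC and C ligands, 3 rose. Ccl8, a CC ligand made by macrophages, was the largest in fold, from 0.529, 0.322 and 0.377 CPM to 2.52, 1.46 and 2.01 CPM. It rested on few reads, 10, 6 and 7 counts against 39, 22 and 30, but the groups were well apart (4.80-fold, log2 fold change 2.26, SE 0.436, edgeR adjusted p = 0.00446). Ccl5, made by T cells, NK cells and platelets among others, measured 12.2, 10.9 and 12.4 CPM against 20.6, 16.0 and 22.1 CPM (1.66-fold, log2 fold change 0.73, SE 0.142, adjusted p = 0.00469). Both calls held whichever library was left out. Macrophage and monocyte markers (6 of 12 called higher) also had higher sums in the Vav1-Cre libraries, at 2507, 1908 and 1187 CPM. Floxed 2 was the lowest floxed and Vav1-Cre 1 the highest Vav1-Cre library by both this sum and Ccl8. The order of the other libraries differed, and Ccl8 had few counts. The part of these cells in Ccl8 was not tested. Beside Ccl5 and Xcl1 stand the T and NK cell markers, 10 of 12 called higher and Nkg7 lower. Their median log2 fold change was 1.13, and their sums overlapped. Xcl1, the C chemokine lymphotactin of T and NK cells, measured 3.65, 1.77 and 4.74 CPM against 7.18, 5.69 and 9.50 CPM (2.20-fold, log2 fold change 1.14, SE 0.333, adjusted p = 0.0408). Without floxed 1, floxed 2, Vav1-Cre 1, Vav1-Cre 2 or Vav1-Cre 3 its adjusted p was 0.126, 0.0961, 0.125, 0.0529 and 0.0785, so among the leave-outs only that of floxed 3 kept the call. It was also lost with upper-quartile scaling (0.0516), the robust option off (0.0571), an offset for gene length (0.0667) and the 3 FPKM fits (0.0998, 0.109 and 0.148). Exons of Xcl1 overlap those of the antisense gene Gm20743 (90 against 529 counts), so without the strand setting of the counting these reads cannot be told apart.

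The remaining tested ligands did not pass. Cxcl2, a neutrophil attractant, measured 39.8, 33.9 and 47.4 CPM against 34.3, 28.6 and 58.7 CPM, and its log2 fold change of 0.01 (SE 0.326, edgeR adjusted p = 0.992) took a negative sign under several settings. Cxcl12 had 22, 7 and 37 counts in the floxed and 3, 19 and 10 in the Vav1-Cre libraries, ranges that overlap (log2 fold change -0.73, SE 0.685, adjusted p = 0.503). Cxcl16, the ligand of Cxcr6 (0.94, SE 0.440, adjusted p = 0.162), passed only without floxed 3 (1.53, adjusted p = 0.0373). Ccl2, the main ligand of Ccr2, stood at 0.49, Ccl25 at -0.15, Ccl27a at -0.27 and Cx3cl1 at -0.28 on the log2 scale, with adjusted p from 0.355 to 0.696. Exons of Ccl25 and Ccl27a overlap those of more abundant genes on the opposite strand, Elavl1 and Il11ra1, so their counts are uncertain, and reads of Ccl27a and its near-identical copy Ccl27b may be split between them.

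Cxcr4, the receptor that retains stem cells in marrow, was the most abundant receptor and rose. It measured 129.6, 106.7 and 111.5 CPM in the floxed and 166, 184 and 157 CPM in the Vav1-Cre libraries. The lowest Vav1-Cre library lay above the highest floxed library. The rise was 1.46-fold (log2 fold change 0.55, SE 0.0892, edgeR adjusted p = 0.00179), and it was called under every leave-out (adjusted p from 0.00042 to 0.0171). B cell marker sums were also higher in the Vav1-Cre libraries (747 to 1438 against 179 to 405 CPM). So were plasma cell marker sums (2061 to 4676 against 308 to 882 CPM). The summed genes of the gate were lower (1222 to 1384 against 1650 to 1727 CPM). The part of these cells in Cxcr4 was not tested. Cxcr4 lies on chromosome 1 from 128588199 to 128592293 (GRCm38). Its promoter (chr1:128592250-128592549, minus strand) is shown as that of the receptor with the highest level, with capitals at overlapping TATA letters on both strands 32 and 30 bases before the start.
Cxcr4: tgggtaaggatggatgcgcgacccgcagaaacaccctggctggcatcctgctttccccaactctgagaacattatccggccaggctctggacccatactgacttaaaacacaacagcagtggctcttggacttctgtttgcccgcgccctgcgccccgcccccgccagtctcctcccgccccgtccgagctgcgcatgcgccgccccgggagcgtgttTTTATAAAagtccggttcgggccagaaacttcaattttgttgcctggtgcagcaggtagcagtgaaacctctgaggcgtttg

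Receptors of lymphoid, monocyte and dendritic cells made up the other receptor calls. Ccr7, which guides dendritic and T cells to lymph nodes, measured 6.62, 3.11 and 4.31 CPM in the floxed and 10.1, 9.79 and 9.43 CPM in the Vav1-Cre libraries (2.09-fold, log2 fold change 1.06, SE 0.242, edgeR adjusted p = 0.0108). The Vav1-Cre libraries were nearly level and all above the floxed libraries, and without Vav1-Cre 1 the adjusted p was 0.051. Cxcr6, a receptor of T and NK cells, had 2, 9 and 5 counts against 22, 14 and 25 (4.60-fold, log2 fold change 2.20, SE 0.558, adjusted p = 0.0177). Without floxed 1, floxed 3 or Vav1-Cre 1 it did not pass (adjusted p = 0.0727, 0.0512 and 0.0753).

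Ccr2, the receptor by which monocytes leave the marrow, measured 22.3, 27.2 and 19.6 CPM against 27.4, 30.0 and 36.7 CPM. Floxed 2 and Vav1-Cre 1 were almost level (1.36-fold, log2 fold change 0.44, SE 0.141, edgeR adjusted p = 0.0477). Leaving out any library except floxed 2 ended the call (adjusted p = 0.161 without floxed 1, 0.161 without floxed 3, 0.0542, 0.102 and 0.114 without Vav1-Cre 1 to 3), and so did upper-quartile scaling (0.076), limma-voom (0.0739), the robust option off (0.0767), a mean count of at least 50 (0.0596) and the FPKM fits (0.116 to 0.203).

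Of the receptors that did not pass, Ccr3 had the largest fold change. This receptor of eosinophils and basophils measured 8.31, 3.11 and 12.9 CPM against 28.1, 23.2 and 15.3 CPM, groups that were apart but each widely spread (log2 fold change 1.46, SE 0.583, edgeR adjusted p = 0.181). The summed mast cell, basophil and eosinophil markers were also apart, with 0 of 9 called higher and 1 lower. Floxed 3, the highest floxed library for Ccr3, had the lowest sum (159 CPM). Vav1-Cre 3, the lowest Vav1-Cre library for Ccr3, had the highest sum (319 CPM). The sum joins several cell types. Macrophage and monocyte marker sums, by contrast, ordered the libraries within each group as Ccr3 did. They were 493.7, 274.4 and 555.4 CPM in the floxed and 2507, 1908 and 1187 CPM in the Vav1-Cre libraries. The part of any of these cells in Ccr3 was not tested. Ccr3 passed with limma-voom (adjusted p = 0.0353) and with the robust option off (0.0498). Cxcr2, the neutrophil receptor of Cxcl2, measured 34.2, 28.7 and 17.2 CPM against 26.7, 17.3 and 38.7 CPM (0.05, SE 0.418, adjusted p = 0.955). Ccr1 measured 25.4, 17.1 and 9.96 CPM against 18.7, 14.4 and 33.1 CPM (0.33, SE 0.507, adjusted p = 0.709). For both, Vav1-Cre 3 was the highest library, followed by floxed 1. These were also the libraries with the highest summed neutrophil markers (35307 and 29203 CPM). The part of neutrophils in either gene was not tested.

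Cx3cr1, a receptor of monocytes and macrophages, measured 5.82, 6.003 and 4.95 CPM against 8.21, 5.82 and 9.23 CPM (0.47, SE 0.210, edgeR adjusted p = 0.141), with overlap. Xcr1, the receptor of Xcl1 on cross-presenting dendritic cells, stood at 0.48 (SE 0.271, adjusted p = 0.243) with groups apart. Cxcr5 (0.78, adjusted p = 0.380), the follicle receptor of B cells, shares exonic sequence positions with the more abundant Bcl9l on the opposite strand. Ccr10 (0.05, adjusted p = 0.963) was low and turned negative when single libraries were left out.

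**Figure D4:**
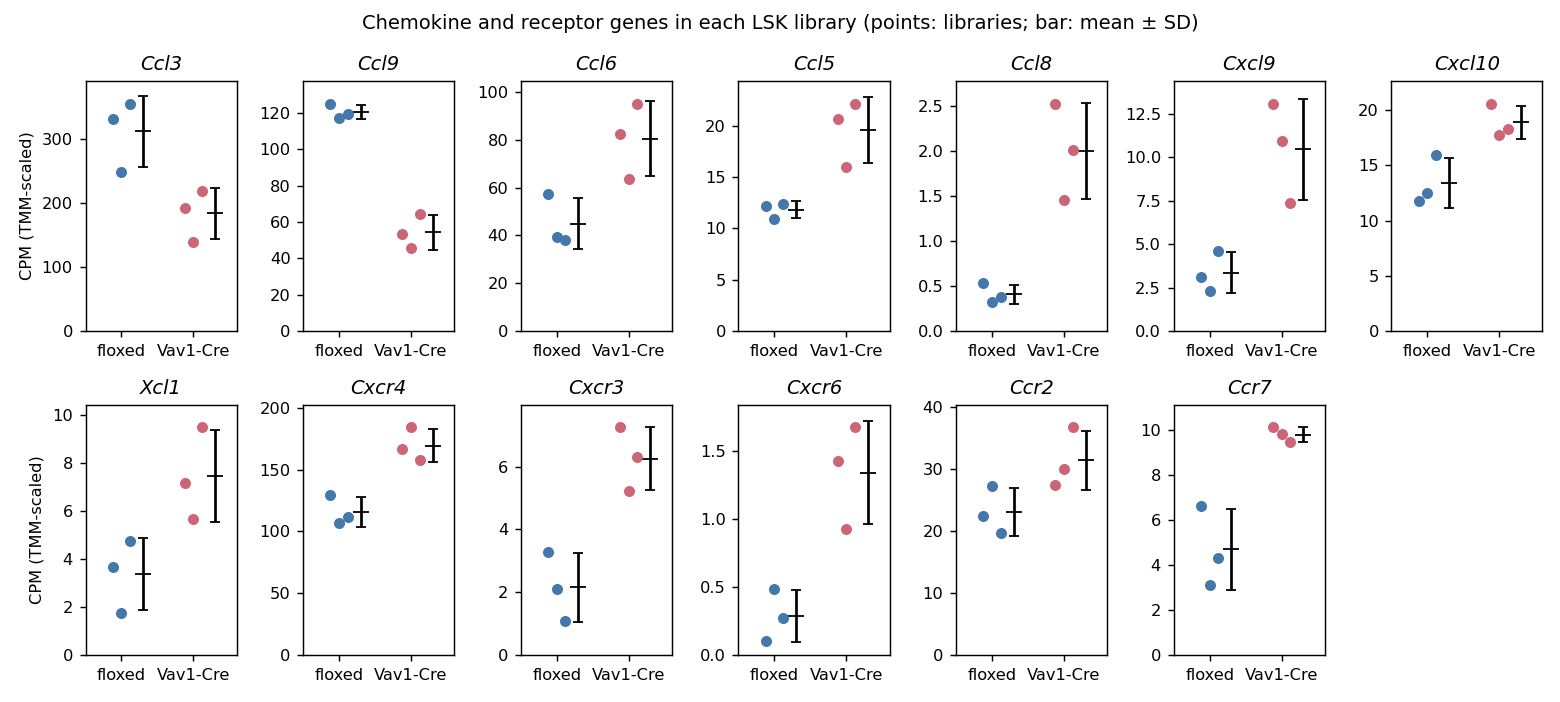
CPM in each library (vertical axis from 0, points, with mean ± SD, n = 3 each) for the 11 called members and for Ccl3 and Ccl6. Ccl3 and Ccl9 are lower and the other genes higher in every Vav1-Cre library than in any floxed library.

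Set beside their receptors, the ligands made in these libraries did not move in 1 direction. For Ccr1 (0.33, not called), the mouse ligands were Ccl9 (-1.15, lower), Ccl3 (-0.76) and Ccl6 (0.84), neither of the last 2 called, and Ccl5 (0.73, higher). For Cxcr3 (1.54), both Cxcl9 (1.64) and Cxcl10 (0.49) were higher. For Cxcr4 (0.55, higher), Cxcl12 (-0.73) was not called, and for Ccr7 (1.06, higher) the ligands Ccl19, Ccl21a and Ccl21b had no counts. Other pairs shared a positive sign: Ccl2 (0.49, not called) with Ccr2 (0.44, higher), Cxcl16 (0.94, not called) with Cxcr6 (2.20, higher), and Xcl1 (1.14, higher) with Xcr1 (0.48, not called). Cx3cl1 (-0.28) and Cx3cr1 (0.47) had opposite signs, and neither was called. Cxcl2 (0.01) and Cxcr2 (0.05) were not called either.

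By position, chromosome 9 held 12 of the 21 receptors, chromosome 11 held 12 and chromosome 5 held 10 of the 37 ligands, in part far apart. In the order along chromosome 11, Ccl5 (higher), Ccl9 (lower), Ccl6, Ccl3 and Ccl4 (not called) follow each other with signs that alternate between the first 4. Ccl5 ends 42400 bases before Ccl9, and 54756 bases separate Ccl6 from Ccl3. Along chromosome 9, the 6 tested genes from Cx3cr1 to Ccr2 all had positive signs, as did all 12 tested receptors on any chromosome. Cxcr6 (123806475 to 123811760) and Ccr2 (124101950 to 124113557) were called.

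**Figure D5:**
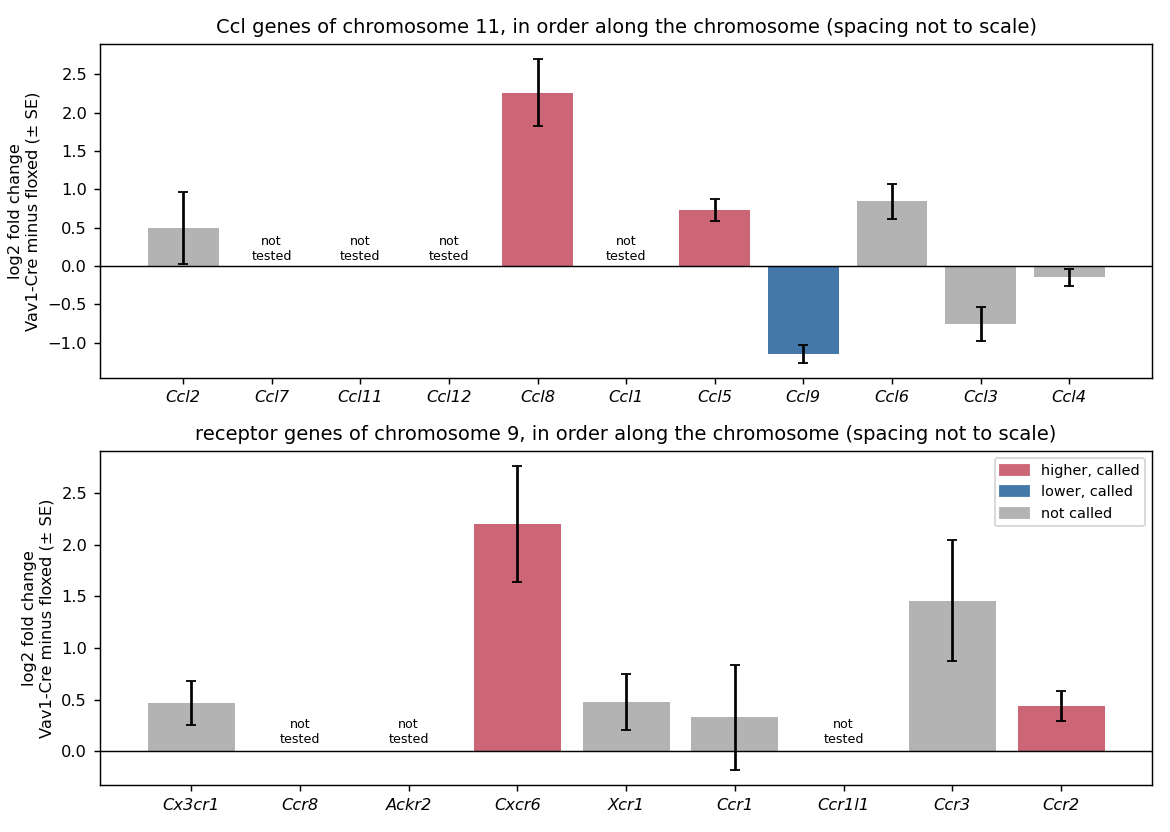
Log2 fold change (vertical axis, bars, ± SE, n = 3 each) of members in their order along the CC ligand cluster of chromosome 11 and the receptor genes of chromosome 9, not to scale. Ccl9 falls between Ccl5 and Ccl6, which have positive values. The tested chromosome 9 receptors are all positive, 2 of them called, as are all 12 tested receptors on any chromosome.

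Members under the count filter showed a few further differences in the fit without that filter. Ccl12, a Ccr2 ligand of the mouse, had 3, 0 and 0 counts in the floxed and 14, 6 and 10 in the Vav1-Cre libraries (adjusted p = 0.0127 in edgeR without the filter). Ccl22, a dendritic cell and macrophage ligand of Ccr4, had 0, 0 and 9 against 23, 9 and 9 counts (0.0188). Cxcl1 had 4, 3 and 0 against 3, 13 and 7 counts (0.225), Ackr3, the scavenger of Cxcl12, 4, 0 and 7 against 9, 10 and 5 (0.394), Ackr2 5, 8 and 0 against 7, 11 and 2 (0.608), and Cxcr1 10, 0 and 0 against 3, 3 and 6 (0.801). At these counts a difference is only partly detectable.

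Other genes of chemokine signalling moved in both directions. Of 16 tested genes that attenuate the receptors or their G proteins, 5 fell and 1 rose, with a median log2 fold change of -0.07. Rgs1, a GTPase-activating protein that dampens Gi signalling, fell from 704 ± 64.5 to 435 ± 45.8 CPM (SD, n = 3 each, log2 fold change -0.69, edgeR adjusted p = 0.000628), and Rgs18 (-0.57), Grk3 (-0.53) and Rgs2 (-0.40) fell as well. Of 18 G protein and effector genes 6 fell and 2 rose (median -0.11). The smallest p-values there belonged to Gng11, a G protein gamma subunit (-0.82), Pik3r6 (0.88), a regulatory subunit of PI3-kinase gamma, Prkcb (0.89), a protein kinase C, and Plcb2 (-0.61), a phospholipase C. Of 28 genes of the migration machinery 3 rose and 3 fell (median -0.03), with Rasgrp2, an exchange factor for Rap1, at 0.67, Rap1a at 0.36, Vav2 at 0.70 and Elmo1 at -0.32. Of 16 tested chemokine-like, processing and other attractant genes 5 rose and 2 fell (median 0.14), led by Cd74, the class II invariant chain and receptor of Mif (1.56), Mmp2, a protease that can cleave chemokines (-1.19), Mif itself (0.46) and Fpr1, a formyl peptide receptor (0.81). The called shares can be read against the 10.1% and 7.89% called over all genes.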

How the data were processed

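Per the file headers, the deposited tables give a read count and an FPKM value for 54532 Ensembl genes in each of 6 libraries. The submitters' processing notes name Bowtie and mm8, while the tool for counting, its annotation and its use of strand are not given in the sources. Per the labels' protocols, RNA was extracted with TRIzol and made into libraries with a TruSeq kit. The identifiers and implied gene lengths match GENCODE M21 on GRCm38 (lengths equal within 0.01% for 94.5% to 94.6% of genes with enough counts to tell), so coordinates are those of GRCm38. Symbols matched 54409 identifiers, and unmatched ones held at most 0.0475% of counts. Another 7 copies on unplaced scaffolds named Ccl19, Ccl21 or Ccl27 held 2 counts in all. Genes that fit the member rule but are not reported here stayed in the fit and entered no count of members.

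The counts went into edgeR 4.0.16 (R 4.3.3) and its quasi-likelihood test (TMM scaling, default count filter with a minimum of 10, robust option, Benjamini-Hochberg adjustment over 14608 genes, threshold 0.05), after a check on simulated counts. SE is the log2 fold change divided by the root of F. Alternatives used DESeq2 1.42.0 and limma 3.58.1, the latter also on log2 of deposited FPKM plus 1 or 0.1, which understates changes of low genes. Replicate numbers were given in the order of the samples and pair nothing. Named genes were all tested members, untested members with at least 10 counts in a library, and up to 4 called genes of each pathway list. Members and lists were chosen with earlier results of these data known.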

Additional observations from a re-analysis of the deposited data

How the results depend on the processing

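Called members kept their direction under each of the 18 alternative settings in which they passed the filter, which leaves out Cxcr6 in the filtered FPKM fits and Cxcr6 and Ccl8 with a mean count of at least 50. In the unfiltered FPKM fit the calls of Ccl5 (adjusted p = 0.0525), Cxcl9 (0.0537), Cxcr3 (0.061), Cxcr6 (0.0713) and Ccr7 (0.0713) were lost too. Over 28 tested members, 411 of 485 alternative values kept their sign and side of the threshold, 41 lost the threshold, 14 gained it and 19 changed sign, all of the last in members that were not called. The number of genes called over the whole table was 1581 and 1532 with limma on log2 of FPKM plus 1 and plus 0.1, and 660 without a filter on low FPKM, against 2621. Ligands called were 2 with FPKM unfiltered, against 6. Receptors called were 3 with FPKM plus 1, 3 with plus 0.1, 1 with FPKM unfiltered and 3 with a mean count of at least 50, against 5; fewer receptors passed the FPKM filter (9) and the mean count filter (8) than were tested (12). Leaving out a library gave 1218 to 3295 genes, 4 to 7 ligands and 1 to 4 receptors. Without a count filter 9 ligands were called, 8 higher and 1 lower. An offset for gene length, chosen after the data were seen, left 5 receptors higher and gave 4 ligands higher and 3 lower, with Ccl3 (-0.92) and Ccl4 (-0.33) called as lower and Xcl1 (0.95) no longer called. Removing immunoglobulin genes left 6 ligands and 5 receptors called.

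Sign changes were as follows. Cxcl2 was -0.04 with upper-quartile scaling, -0.05 with limma-voom, -0.01 without a count filter, 0 with a mean count of at least 50, -0.04 in each FPKM fit and -0.04 with the length offset, and -0.36 to 0.21 with a library left out. Ccr10 was -0.01 with the length offset and -0.41 to 0.78 with a library left out, Ccr1 -0.08 to 0.70 and Cxcr2 -0.28 to 0.29. The cause was not tested. Symbols without a paralogue letter or suffix gave 53 members, 27 of them tested, with 10 higher and 1 lower, the same numbers as with all 58. No paired analysis was possible because the labels give no replicate number that links the libraries of the 2 groups. Members with under about 10 counts a library are limited by depth.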
